A study of Rattus norvegicus with 6 samples.

Results

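The genes described here are those of the endothelin system and the receptors for inositol 1,4,5-trisphosphate (IP3), measured in neonatal rat ovaries after immune challenge. The 9 genes were listed by symbol alone, namely Edn1, Edn2, Edn3, Ednra, Ednrb, Ece1, Itpr1, Itpr2 and Itpr3. Of these 9, 8 had a named probe, and Edn2 was not analysed here because no probe was matched to it through a RefSeq accession. The 8 genes were read by 10 of the 30367 probes tested, which carried 26903 gene names in all, counting an accession as a name where no symbol was found. Ovaries were collected on postnatal day (PND) 7 from female Wistar pups that had received lipopolysaccharide (LPS) from Salmonella enterica, serotype enteritidis, at 0.05 mg/kg by intraperitoneal injection on PNDs 3 and 5. Control pups received an equal volume of saline on the same days, and no other treatment or genotype was compared. Each treatment was represented by 3 single-colour Agilent arrays, and this small number limits how precisely any difference can be known. Whole litters had been allocated to a treatment and the arrays are not tied to animals, so litter and treatment cannot be told apart. Per the paper, the ovaries of each treatment came from fewer litters than there were arrays. The arrays of a treatment therefore cannot each stand for a separate litter, and the p-values measure the spread between these arrays.

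Endothelins are short vasoconstrictor peptides that are cut from larger precursors, the last cut being made by endothelin-converting enzymes such as Ece1. They act on the G protein-coupled receptors Ednra and Ednrb, which can activate phospholipase C, and the IP3 that this enzyme releases opens the IP3 receptors, calcium channels in the membrane of the endoplasmic reticulum. In the ovary endothelins are known as products of endothelial and granulosa cells that act on vascular tone and ovulation, and endothelin-1 is also released by several cell types during inflammation.

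All levels below are the log2 of the background-subtracted signal minus the 75th percentile of the same array, so that a level of 0 is the signal of a fairly bright probe and negative levels are dimmer. Levels of different probes served to pick the probe or gene with the brightest signal and were not compared as amounts of RNA. The 6 arrays were on 1 slide, with LPS 2 and LPS 3 in row 1 and LPS 1 and the 3 saline arrays in row 2. No saline array was in row 1, so slide row and treatment cannot be fully told apart. Between 66.3% and 76.0% of the spots of an array were well above background. The LPS arrays were at 72.4% to 76.0% and the saline arrays at 66.3% to 70.4%. Markers of oocytes (9 of 9 probes) and granulosa cells (8 of 9 probes) were well above background on every array. The saline 2 and saline 3 arrays also carried markers of the adrenal gland, which lies near the ovary. Their summed signal of 7 adrenal cortex genes, relative to the 75th percentile, was 213 and 291, compared with 1.43 to 1.87 on the other 4 arrays. The replicate 1 arrays of both treatments stood apart by their epithelial markers, with a summed signal of 72.8 and 72.1 for 7 genes of the oviduct and ovarian surface, compared with 26.8 to 43.4 elsewhere.

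None of the 10 probes differed between treatments at an adjusted p under 0.05 (limma with Benjamini-Hochberg adjustment over all probes, lowest adjusted p = 0.271). No probe of the whole array passed that threshold either (percent called 0), although 5018 probes had an unadjusted p under 0.05. By the criterion stated in the methods, a difference of at least 2-fold with an unadjusted p under 0.05, 1 of the 10 probes was higher after LPS, against 0.613% of all probes, and 0 of 10 were lower, against 1.08% of all probes. The 1 probe was that of Itpr2. At an unadjusted p under 0.05 alone, 1 of 10 was higher (2.46% of all probes) and 1 was lower (14.1% of all probes), the latter a probe of Ednra at background level. Of the 4272 probes in all that were lower at this level, 3731 were well above background on no array. Edn1 and Itpr2 are both on the list of changed genes that the study drew from these same arrays, so their values are not independent evidence of that list. Because whole ovaries were used, fewer cells of a type and less RNA per cell cannot be told apart.

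**Figure D1:**
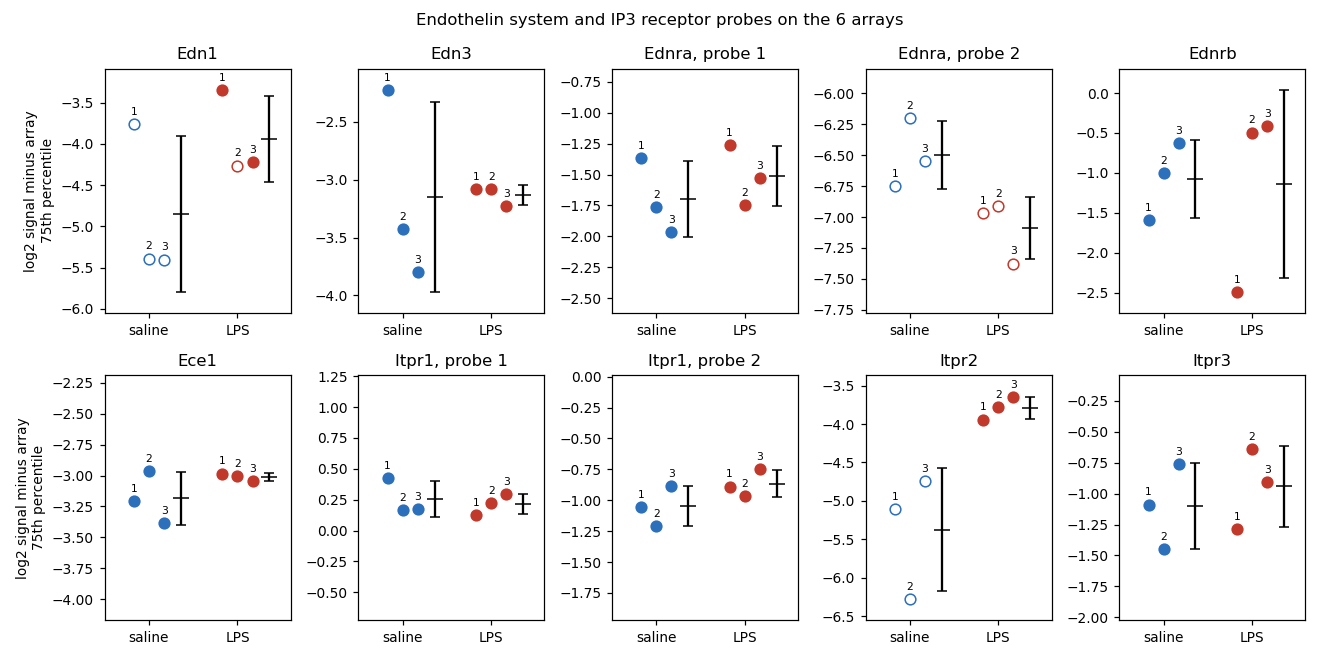
Level of each of the 10 probes on the 6 arrays, as log2 signal minus the 75th percentile of the array (vertical axis, with its own range in each panel), for saline (blue) and LPS (red). Points are single arrays marked with their replicate number, filled where every unflagged spot of the probe was well above background and open where it was not, and the bars are the mean ± SD of 3 arrays. The Itpr2 points of the 2 treatments do not overlap, while those of Edn1 do.

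Edn1 encodes the precursor of endothelin-1, the best known of the vasoconstrictor peptides. The level of Edn1 after LPS was -3.34, -4.26 and -4.22 on arrays 1, 2 and 3 (mean -3.94 ± 0.52, SD, n = 3). After saline it was -3.76, -5.39 and -5.40 (mean -4.85 ± 0.94, SD, n = 3). The saline 1 array lay between the LPS arrays, so the groups overlapped, while the other two saline arrays were below every LPS array. The log2 fold change was 0.91 (SE 0.50, 95% interval -0.29 to 2.11, limma adjusted p = 0.456), and an exact two-sided permutation test over the 6 arrays gave p = 0.3. Within each pair of arrays with the same replicate number Edn1 was higher after LPS, by 0.42, 1.13 and 1.18 on the log2 scale, which was the case for 14.7% of all probes. With the replicate number as a block the unadjusted p was 0.0101 and the adjusted p was 0.167 in limma. Whole litters had received 1 treatment, so arrays of the same number share no litter, and this block was chosen from correlations in these same data.

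The probe of Edn1 was printed as 10 spots, which allowed its signal to be followed close to background. All 10 spots on the LPS 1 and LPS 3 arrays, 9 of 10 on LPS 2 and 9 of 10 on saline 1 were well above background. On the saline 2 array 0 of 8 unflagged spots were, and on saline 3 it was 0 of 10. The mean processed signal of these spots was 334, 217 and 295 after LPS and 176, 111 and 78.0 after saline. These unscaled signals did not overlap between treatments, whereas the signals before background subtraction did, at 874, 1070 and 1335 after LPS and 754, 1116 and 656 after saline. Since no saline array had every spot well above background, the difference was given as a bound on the ratio of group means. LPS 2 and saline 1 both had 9 of 10 such spots, and both entered at their own level. The bound was 1.17-fold on the background-subtracted scale, and 1.03 to 1.34 when single arrays were left out. No bound above 1 remained without LPS 1. The single arrays of the groups overlapped and the 95% interval of the fit included 0, so no minimum increase is established. The log2 fold change was 0.16 with normexp background correction and 0.057 without background correction, both smaller than that bound.

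**Figure D2:**
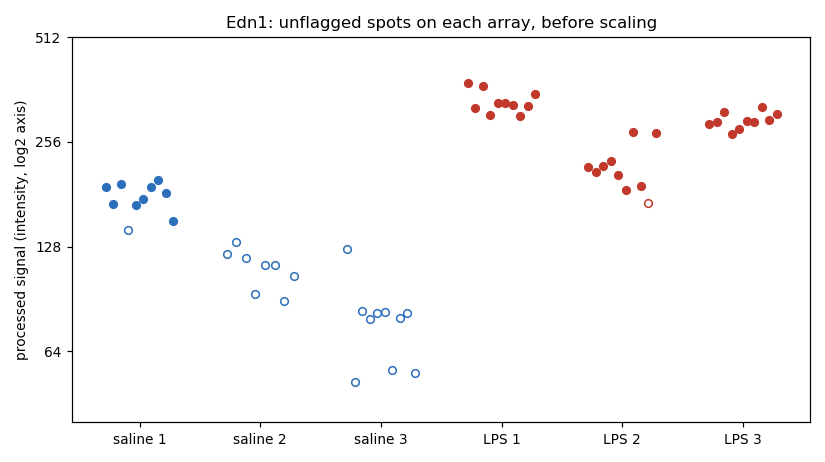
Processed signal (intensity, log2 axis) of every unflagged spot of the Edn1 probe on each of the 6 arrays, before scaling between arrays. Filled points are spots well above background and open points are spots that were not, and no spot on the saline 2 and saline 3 arrays was.

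The comparison for Edn1 rested on which saline arrays it was made with. Without saline 1 the fitted log2 fold change was 1.45 (SE 0.33, limma adjusted p = 0.191), and Edn1 then met the 2-fold criterion. No Edn1 spot was well above background on saline 2 or saline 3, and the bound without saline 1 was only 1.34-fold. Against saline 1 alone the log2 fold change was -0.18. The saline 2 and saline 3 arrays, on which Edn1 was lowest, were those with the adrenal markers, and the part of this in the result was not tested. Among the 4 arrays in the same row of the slide, LPS 1 exceeded the mean of the 3 saline arrays by 1.51.

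Edn3 encodes endothelin-3, a ligand that acts mainly through Ednrb and is required for the development of neural crest cells. Its level was -3.08, -3.08 and -3.23 after LPS (mean -3.13 ± 0.09, SD, n = 3). After saline it was -2.22, -3.42 and -3.80 (mean -3.15 ± 0.82, SD, n = 3). The LPS arrays were close together and lay inside the range of the saline arrays. The log2 fold change was 0.02 (SE 0.40, 95% interval -0.93 to 0.97, limma adjusted p = 0.997). The highest value of the 6 was on saline 1, and against that array alone the log2 difference was -0.91.

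Ece1 encodes the membrane protease that releases active endothelin from its precursor. It lay between -3.05 and -2.98 on the LPS arrays and at -3.21, -2.96 and -3.38 after saline. The groups overlapped through saline 2, and the log2 fold change was 0.17 (SE 0.18, 95% interval -0.24 to 0.59, limma adjusted p = 0.786). Its upper limit lies below a 2-fold difference, which is 1 on this scale.

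Ednra, the receptor through which endothelin-1 contracts smooth muscle, was read by 2 probes. The first was at -1.26, -1.74 and -1.53 after LPS and at -1.36, -1.77 and -1.97 after saline, with overlapping groups. Its log2 fold change was 0.19 (SE 0.23, 95% interval -0.36 to 0.73, limma adjusted p = 0.846). The second probe was well above background on 0 of the 6 arrays, and its fitted difference is not read as a fold. Its levels of -6.97, -6.91 and -7.38 after LPS and -6.75, -6.20 and -6.55 after saline did not overlap (exact two-sided permutation p = 0.1, limma adjusted p = 0.283). Of all 8023 probes without an array well above background, 55.2% likewise did not overlap with the LPS arrays lower, and 46.5% were lower at an unadjusted p under 0.05.

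Ednrb binds all endothelins and is known both for the release of vasodilators from endothelium and for clearing endothelin-1 from the circulation. Its level was -2.49, -0.49 and -0.42 after LPS (mean -1.14 ± 1.18, SD, n = 3). After saline it was -1.59, -1.01 and -0.63 (mean -1.07 ± 0.49, SD, n = 3). The LPS 1 array was the lowest of all 6 and the other 2 LPS arrays were the highest, so the spread within a treatment exceeded the difference between them. The log2 fold change was -0.06 (SE 0.59, 95% interval -1.47 to 1.34, limma adjusted p = 0.995). Single arrays decided its sign. Without LPS 1 the log2 fold change was 0.62 and without saline 3 it was 0.16, and LPS 1 alone against the 3 saline arrays of its slide row gave -1.42, at an unadjusted p of 0.0105 (limma with the slide row as a block, adjusted p = 0.399). That value rests on 1 LPS array, which is assumed to vary like the other arrays of the fit.

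The replicate 1 arrays of both treatments carried the lowest Ednrb and the highest Edn1 values of their group. The same arrays were those with the high epithelial markers, and LPS 1 had the lowest summed signal of 9 granulosa cell genes, at 20.5 compared with 38.4 to 82.6 on the other 5 arrays. Markers of vascular endothelium, the cells best known for making endothelin-1, had a summed signal of 10.6, 13.7 and 14.9 after LPS and of 10.9, 17.1 and 14.1 after saline (11 probes, 9 of them well above background on every array). Of these 11, 0 differed at an unadjusted p under 0.05, where 2.22% of genes in all were higher and 13.7% lower. The latter share comes mostly from probes well above background on no array, which was so for 1 of the 11. Smooth muscle and pericyte markers, from cells known to carry Ednra, summed to 44.4, 54.0 and 62.5 after LPS and to 50.9, 47.4 and 30.4 after saline. Of these 0 of 10 differed at that level, although all 10 had a positive fitted difference (median log2 fold change 0.36). Of genes in all 44.2% were positive, and of probes well above background on every array 53.6%. All 9 oocyte markers and all 7 of the oviduct and ovarian surface were positive too, compared with 5 of the 11 endothelial markers. The part of these markers in the endothelin results was not tested.

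**Figure D3:**
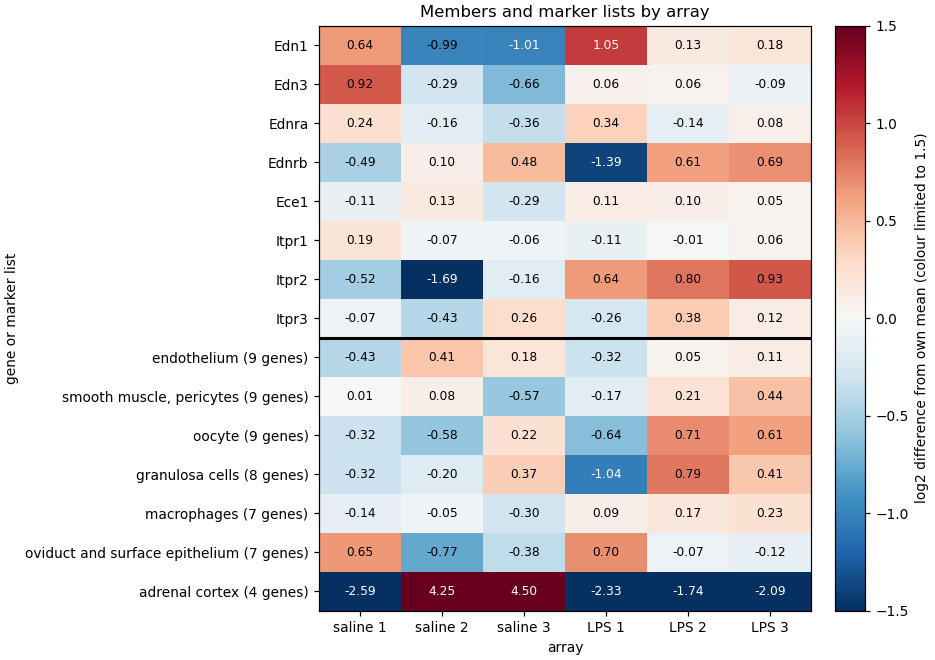
Difference of each gene (one probe per gene, the one with the highest mean signal) from its own mean over the 6 arrays, in log2 units, above the line, and the mean of the same quantity over the genes of each marker list that were well above background on every array, below the line. Colours are limited to 1.5 in either direction and the printed numbers are not. Itpr2 is above its mean on all 3 LPS arrays and below it on all 3 saline arrays, and the adrenal cortex list is at 4.25 and 4.50 on saline 2 and saline 3.

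Of the IP3 receptors, Itpr1 is best known from the nervous system, smooth muscle and the egg, where it carries the calcium release of fertilisation. Its first probe was at 0.13, 0.22 and 0.29 after LPS and at 0.42, 0.17 and 0.17 after saline, with a log2 fold change of -0.04 (SE 0.17, 95% interval -0.43 to 0.36, limma adjusted p = 0.983). Its second probe was at -0.89, -0.97 and -0.75 after LPS and at -1.05, -1.21 and -0.88 after saline, with a log2 fold change of 0.18 (SE 0.17, 95% interval -0.23 to 0.59, limma adjusted p = 0.766). The groups overlapped for both probes, and both intervals exclude a 2-fold difference in either direction. The fitted differences of the 2 probes had opposite signs and lay within each other's intervals.

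Itpr2, the IP3 receptor with the highest affinity for IP3 and the main one in heart muscle cells and many secretory epithelia, gave the largest fitted difference of the 10 probes. Its level was -3.94, -3.78 and -3.65 after LPS (mean -3.79 ± 0.15, SD, n = 3). After saline it was -5.10, -6.27 and -4.74 (mean -5.37 ± 0.80, SD, n = 3). All 3 LPS arrays were above all 3 saline arrays, which held for 5.02% of all probes, while 18.4% had the LPS arrays below. The fitted log2 fold change was 1.58 (SE 0.39, 95% interval 0.64 to 2.52, unadjusted p = 0.00558, limma adjusted p = 0.271). The exact two-sided permutation test gave p = 0.1, the smallest p that 3 arrays against 3 allow. Within the same-numbered pairs the difference was 1.16, 2.49 and 1.09.

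Both spots of the Itpr2 probe were well above background on every LPS array, while 0, 0 and 1 of 2 spots were on saline 1, 2 and 3. The mean processed signal was 226, 301 and 440 after LPS and 71.6, 59.9 and 122 after saline. The saline level is therefore only bounded from above. On the background-subtracted scale the ratio of group means was at least 1.58-fold, with a bound of 1.49 to 1.71 when single arrays were left out. Before background subtraction the signals were 755, 1149 and 1472 after LPS and 641, 1034 and 698 after saline, and these overlapped between treatments. Without background correction the log2 fold change was 0.15 and with normexp correction it was 0.34, both smaller than the bound of 1.58-fold. The size of the difference, and with it the bound, depended on the background that was subtracted. There were 337 probes that, like that of Itpr2, were well above background on every LPS array but no saline array, and 15.7% of these met the 2-fold criterion.

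For Itpr2 the direction was the same on either set of saline arrays. Against saline 1, which lacked the adrenal markers, the fitted log2 difference was 1.31, a value that rests on this single saline array. Without saline 1 the fitted difference was 1.72, and LPS 1 alone against the saline arrays of its slide row gave 1.43. No saline array had both spots well above background, so these 3 values are not read as folds. The bound without saline 1 was 1.49-fold. The share of spots well above background, given above, was also higher on every LPS array than on every saline array. Of 10 macrophage markers 4 were higher after LPS at an unadjusted p under 0.05 (limma), without overlap. Of genes in all, 2.22% were higher at that level and 4.67% did not overlap with LPS higher. The 4 were Csf1r (log2 fold change 0.52), Adgre1 (0.81), Fcgr1a (0.52) and Mrc1, none after adjustment (limma, lowest adjusted p = 0.271). Mrc1 was well above background on 3 LPS arrays but 0 saline arrays, so its fitted 1.19 is not read as a fold. Of the 10, 7 had a positive fitted difference (44.2% of genes in all), while Cd68 (-0.16), Cd163 (-0.16) and C1qa (-0.07) were negative. Among the 7 markers well above background on every array 5 were positive, against 53.6% of all such probes. The summed signal of the 10 was 6.86, 7.53 and 7.69 after LPS and 6.68, 6.66 and 5.69 after saline. The part of either in the Itpr2 result was not tested.

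Itpr3, the IP3 receptor of many epithelial and secretory cells, was at -1.28, -0.64 and -0.91 after LPS and at -1.09, -1.45 and -0.76 after saline. The groups overlapped, and the log2 fold change was 0.16 (SE 0.26, 95% interval -0.46 to 0.78, limma adjusted p = 0.910). No difference was detectable for either Itpr1 or Itpr3. Whether the response of Itpr2 differed from that of the other IP3 receptors was not tested.

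**Figure D4:**
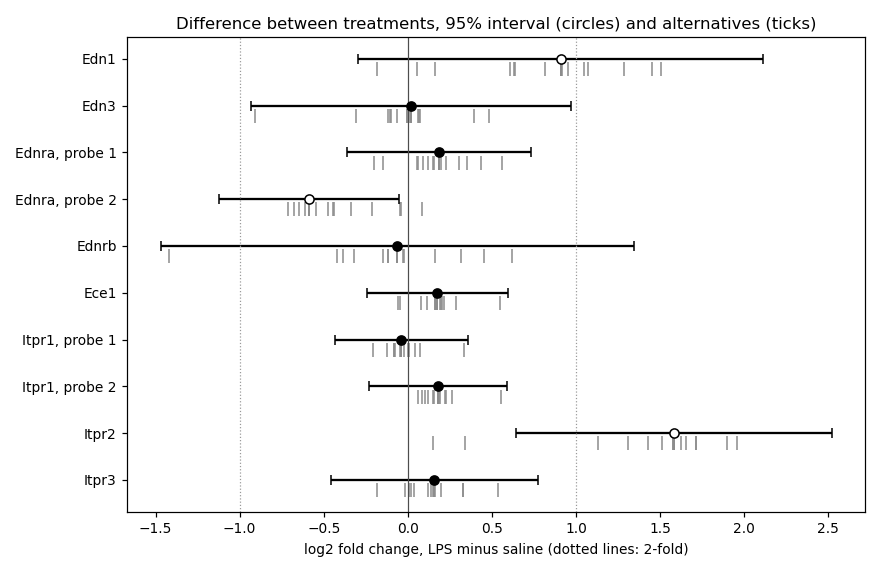
Log2 fold change (LPS minus saline) of the 10 probes with the 95% interval of the fit over 3 arrays against 3 (circles and bars), and the value under each alternative way of processing the arrays (grey ticks). Circles are filled where the probe was well above background on every array and dotted lines mark 2-fold. The interval of Itpr2, from 0.64 to 2.52, lies above 0, but its ticks reach from 0.15 to 1.96.

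Across the members, 7 of the 10 probes had a positive fitted difference, as did 44.8% of all probes. Of the 7 member probes that were well above background on every array, 5 were positive, compared with 53.6% of all such probes. Their log2 fold changes ran from -0.06 to 0.19 with a median of 0.16, and the lowest adjusted p among them was 0.766 (limma). The 3 remaining probes, those of Edn1 and Itpr2 and the second of Ednra, held the largest differences in size and were the 3 that were not above background on every array.

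The profiles of the members over the 6 arrays also differed from each other in the genes they resembled. For the 6 genes with a probe well above background on every array, the closest of 9667 named genes was found by the root mean square difference of the centred log2 levels over the 6 arrays. Ednrb was closest to Serpine2, which encodes an inhibitor of serine proteases, and to Procr, the endothelial protein C receptor (0.16 and 0.18, against an SD of 0.74 for Ednrb itself). Edn3 was closest to Ddr2, a collagen receptor, and Wfdc21 (0.10 and 0.14, own SD 0.48). Ednra was closest to Ier5 and Cd44, the receptor for hyaluronan (0.03 and 0.05, own SD 0.24).

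Like Ednrb, both Serpine2 and Procr were lowest on LPS 1 and higher on LPS 2 and LPS 3 than on any saline array, with saline 1 the lowest of the saline arrays. Ece1 (own SD 0.15) was closest to Syncrip and Ltv1 at 0.04 and 0.05, and Itpr1 (own SD 0.10) to Rbm4b and Ttc5 at 0.02 and 0.03. Itpr3 (own SD 0.29) was closest to Mov10 and Fgfr4, a receptor for fibroblast growth factors, each at 0.07. With 6 arrays and so many genes, these are descriptions of the profiles.

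The genes around the members, from the enzymes that break endothelins down to the channels that refill calcium stores, were taken as a list of 70, of which 64 had a named probe. None passed at an adjusted p under 0.05 (limma). At an unadjusted p under 0.05, 2 of the 64 were higher after LPS, where 2.22% of genes in all were, and 2 were lower, where 13.7% of genes in all were. The arrays of the treatments did not overlap for 4 genes with LPS higher and 1 with LPS lower, against 4.67% and 18.2% of genes in all. Of all 5596 probes that did not overlap with LPS lower, 4426 were well above background on no array. That was so for 3 of the 64 genes, so the shares of 13.7% and 18.2% are not matched to the list. Of the 64, 39 were positive, against 44.2% of genes in all, a share that is likewise not matched to the list. The median log2 fold change was 0.04 over the 64 and 0.01 over the 48 that were well above background on every array. Of these 48, 28 were positive, against 53.6% of all probes well above background on every array.

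The 2 higher genes both belong to the refilling of calcium stores or to calcium entry. Stim2, a sensor of the calcium level in the endoplasmic reticulum, was at -3.01, -2.97 and -2.55 after LPS and at -3.85, -3.62 and -3.14 after saline. The groups did not overlap, and the log2 fold change was 0.69 (SE 0.25, limma adjusted p = 0.274). Trpc4, a cation channel of the plasma membrane opened downstream of phospholipase C, was at -3.23, -3.48 and -3.43 after LPS and at -3.72, -3.87 and -3.87 after saline (log2 fold change 0.44, SE 0.16, limma adjusted p = 0.278). Its groups did not overlap either. Stim2 was well above background on 1 of 3 saline arrays and Trpc4 on 2 of 3, and both were on all 3 LPS arrays. Stim2 had 2 probes, of which the brighter is given here. With the mean of its probes it no longer had an unadjusted p under 0.05 (limma).

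The 2 lower genes were Ahcyl2 and Atp2a1. Ahcyl2, a relative of the IP3 receptor inhibitor IRBIT, was at -0.11, -0.14 and -0.21 after LPS and at -0.12, 1.24 and 1.28 after saline, with a log2 fold change of -0.96 (SE 0.39, unadjusted p = 0.0446, limma adjusted p = 0.294). Its high values were on the saline arrays with the adrenal markers, and saline 1 lay among the LPS arrays. Without saline 1 it was the 1 gene of the list with an adjusted p under 0.05 (log2 fold change -1.42, limma adjusted p = 0.0276). Rgs4, which ends signaling by the G proteins of these receptors, had the lowest value of the list, a log2 fold change of -1.73 (SE 0.97, limma adjusted p = 0.467), and was likewise high only on saline 2 and saline 3, at 1.65 and 0.02 compared with -2.60 to -1.90 on the other 4 arrays. Atp2a1, a calcium pump best known from skeletal muscle, was nowhere well above background, so that no fold is given. The part of the adrenal markers in the values of Ahcyl2 and Rgs4 was not tested.

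**Figure D5:**
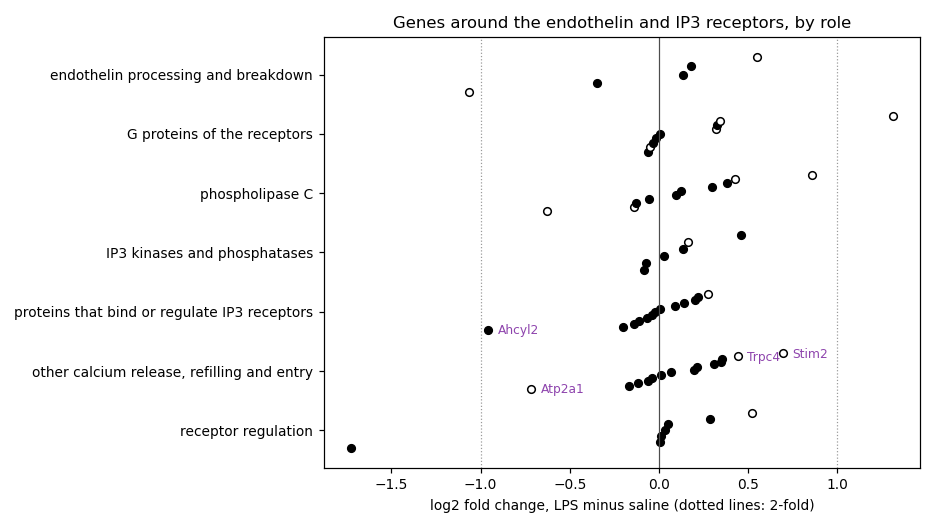
Log2 fold change (LPS minus saline, horizontal axis) of the 64 listed genes with a probe, each a point, grouped by role. Points are filled where the probe was well above background on every array, dotted lines mark 2-fold, and the 4 genes with an unadjusted p under 0.05 are named. Of these 4 only Ahcyl2 is filled.

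The medians of the roles were close to 0. Among genes well above background on every array, the median log2 fold change was 0.13 for the 3 of endothelin processing and breakdown, -0.02 for the 5 G proteins, 0.11 for the 6 phospholipases C and 0.03 for the 5 IP3 kinases and phosphatases. It was -0.03 for the 12 proteins that bind or regulate IP3 receptors, 0.07 for the 11 of other calcium release, refilling and entry, and 0.02 for the 6 of receptor regulation.

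The brightest gene of each role, where the signal was least affected by background, gave small differences. Mme, or neprilysin, which degrades endothelins, differed by 0.13 (SE 0.19) and the inhibitory G protein subunit Gnai2 by -0.06 (SE 0.17). Plcg1, a phospholipase C activated by tyrosine kinases, differed by 0.12 (SE 0.30), and Inpp1, a phosphatase of inositol phosphates, by 0.03 (SE 0.18). Calm2, which encodes calmodulin, differed by 0.01 (SE 0.19), the calcium pump Atp2a2 by -0.12 (SE 0.17) and the arrestin Arrb2 by 0.28 (SE 0.17). All 7 had overlapping groups, and the lowest adjusted p among them was 0.528 (limma). The highest positive fitted difference of the list was that of Gnaq, the G protein that couples endothelin receptors to phospholipase C, at 1.31 (SE 0.60, limma adjusted p = 0.335). Its levels of -3.62, -4.34 and -3.43 after LPS and -6.42, -4.82 and -4.07 after saline overlapped, and its probe was well above background on 1 of 3 saline arrays. Gnaq, Rgs4, Ahcyl2 and Atp2a1, like the macrophage markers Mrc1, Fcgr1a, Cd163 and C1qa, were named after their values had been seen.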

How the data were processed

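Per the labels, ovarian RNA from LPS- and saline-treated rats was hybridized to 6 arrays, grouped by the treatment and replicate number in each title. The labels name biotin as the label and the methods name Cy3. The authors deposited intensity values for every spot, with flags, from Agilent Feature Extraction 10.5.1.1, whose processed signal has the background already subtracted. Their table for the whole study holds the same intensities within 0.497% and is not scaled between arrays. Genome coordinates and probe sequences were not used here.

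Non-uniform and outlier spots were removed, spots of a probe were averaged, and the 75th percentile of each array was subtracted from the log2 values. Probes needed 2 unflagged arrays per group. The treatments were compared in one limma fit of all 30367 probes (version 3.58.1, R 4.3.3, lmFit with eBayes), p-values were adjusted by Benjamini-Hochberg, and the procedure was tested on simulated data. Python 3.11.15 with pandas 2.3.3 made the summaries. Probes were named through their RefSeq accession (17998 probes given a symbol from GRCr8, used for names alone). The others kept the systematic name in the files, which counts as a gene name in the shares of genes in all. A probe was well above background on an array if all its unflagged spots were. Where that held on no array of a group, the fold is a bound, the mean of the brighter group against the higher, on each array of the dimmer group, of the probe's own level and the lowest level among probes well above background.

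The members, lists and tests were chosen with earlier results of these data known. The genes named by rule are all members, pathway genes with an unadjusted p under 0.05, no overlap and a signal well above background throughout at least 1 group, the brightest gene of each role, the first 2 and the extremes of each marker list, and the 2 closest profiles of each member. Exceptions are stated beside their values, and marker lists are mostly given by their sums. Arrays with the same replicate number deviated together from their group means (correlations across probes of 0.298, 0.215 and 0.254), so the numbers were taken as pairs on this evidence alone. In all, 21 alternatives were run. Precision depends on the signal over background, and 0 spots were saturated.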

Additional observations from a re-analysis of the deposited data

How the results depend on the processing

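No member passed at an adjusted p under 0.05 in the main analysis or under any of the 21 alternatives, and Itpr2 and the second Itpr1 probe kept their sign under all that could be computed for them (0.15 to 1.96 and 0.06 to 0.55 on the log2 scale). Without normalization between arrays the median of all probes moved from -0.04 to 0.34. The count of 1 member probe at least 2-fold higher was 0 with normexp, 0 without background correction, 0 among probes well above background on all 6 arrays (which removes Itpr2) and 2 without normalization (Edn1 joining at 1.28). It was 1 to 2 with single arrays left out, the 2 being Itpr2 and Edn1 without saline 1. The count of 0 lower was 1 with the slide row as a block (Ednrb, resting on the LPS 1 array alone). With the replicate number as a block the member counts were unchanged at 1 higher and 0 lower, and the log2 fold change of Itpr2 was 1.58 (adjusted p = 0.167).

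Signs turned as follows, on the log2 scale. Against saline 1 alone, Edn1 was -0.18, Edn3 -0.91, the first Ednra probe -0.15 and Ednrb 0.45. With normexp, Edn3 was -0.10, the second Ednra probe (at background on all 6 arrays) 0.084 and Ece1 -0.044. Without background correction Edn3 was -0.10 and Ece1 -0.061. Edn3 was -0.064 after quantile normalization. Without normalization Ednrb was 0.31 and the first Itpr1 probe 0.34. With the percentile over probes well above background the latter was 0.0017. As the mean of both probes Ednra was -0.20 and Itpr1 0.070. With the slide row as a block Itpr3 was -0.18. With single arrays left out Edn3 ran from -0.31 to 0.48, Ednrb from -0.42 to 0.62, the first Itpr1 probe from -0.082 to 0.045 and Itpr3 from -0.017 to 0.33, while Edn1 (0.61 to 1.45) and Itpr2 (1.13 to 1.90) kept their sign.

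Of the pathway list, the 2 genes higher at an unadjusted p under 0.05 became 0 with normexp and among probes well above background on all 6 arrays. They became 1 without background correction, with quantile normalization, the methods' t-test, limma with an intensity trend and the mean of probes. They became 3 without normalization, with the slide row as a block and with the replicate block. Against saline 1 alone, a fit with a single saline array, the count rose. It ran from 0 (without LPS 3) to 5 (without saline 1) with single arrays left out. The 2 lower genes became 0 with quantile normalization, without normalization, with the slide row as a block and against saline 1 alone. They became 1 with normexp, the percentile over bright probes, either filter on dim probes and the methods' t-test, and ran from 1 to 4 (without saline 1) with single arrays left out. The count of 0 at an adjusted p under 0.05 ran from 0 to 1, the 1 being Ahcyl2 without saline 1. The cause of these changes was not tested.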
